A study of Mus musculus with 6 samples.

Results

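The cytosolic ribosomal proteins are the protein parts of the ribosome that translates nuclear mRNA in the cytoplasm, as opposed to the ribosome inside mitochondria. Their genes were taken by symbol (Rpl or Rps with a digit, Rplp0, Rplp1, Rplp2 and Rpsa), with the brightest probe standing for each gene. The Rps6k kinases and symbols holding -ps, a mark of pseudogenes, were left out. Of 65 such genes with a named probe, 57 were above background (detection p under 0.01) on at least 2 of 6 arrays and were kept, out of 9221 genes that passed the same filter. By symbol, 31 of the 57 belong to the large subunit, 23 to the small subunit and 3 to the ribosomal stalk. The symbol rule also took 7 genes that are not standard parts of the ribosome or are copies of another gene: Rps19bp1, which encodes a binding partner of the Rps19 protein, and the paralogs Rpl3l, Rpl7l1, Rpl22l1, Rps27l, Rps4l and Rpl36al. The platform annotation assigns the Rps4l probe to a non-coding transcript.

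All 6 cultures were of C57BL/6 mouse bone marrow in GM-CSF (20 ng/ml), the cytokine that turns marrow progenitors into dendritic cells (DC), which present antigen to T cells. Each culture also held either the p38 MAP kinase inhibitor SB202190, at 1.5 mM as the labels give it (a unit not checked here), or its solvent DMSO at 0.1%. RNA was taken on day 2 (pre-DC), on day 7 from the semi-adherent fraction (immature DC), and from immature cells that then received 48 h of 10 ng/ml TNF-a plus 10 ng/ml IL-1b (mature DC). A single array covers each combination of stage and treatment. The labels state neither whether the inhibitor stayed during maturation nor that the cultures were independent, so p-values measure only the spread among the 6 arrays, which may be partly technical.

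A ribosome joins a small subunit, which reads the mRNA, to a large subunit, which forms the peptide bond, and each subunit holds many proteins, most of them needed in matching amounts. Mammalian mRNAs for these proteins begin with a run of pyrimidines at the cap, called the 5′ terminal oligopyrimidine (TOP) motif, through which mTORC1 controls their translation more than their abundance. Growing and dividing cells make many ribosomes, with RNA polymerase I transcribing the ribosomal RNA and a large set of nucleolar factors assembling the particles.

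The start sites of these genes in RefSeq (GRCm38.p6) were searched for pyrimidine runs, which the choice of genes did not use. A row of the promoter table was matched for 48 of the 57 genes, and the first start listed was taken. The windows printed here run from 30 bases before the start to the 20th base after it, 5′ to 3′ on the strand of the gene, with the longest run of C and T in capitals. The first 6 were chosen after their values were seen. They have a long run and a small difference between stages on the brightest probe. A dimmer probe of Rpl38 differed by -2.61 between mature DC and pre-DC, as given with the other probes further on.
Rps9 (chr7:3704011-3704060, plus strand): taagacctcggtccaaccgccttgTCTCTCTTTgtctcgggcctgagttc
Rps10 (chr17:27635225-27635274, minus strand): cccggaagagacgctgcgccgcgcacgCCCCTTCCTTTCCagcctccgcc
Rpl28 (chr7:4792935-4792984, plus strand): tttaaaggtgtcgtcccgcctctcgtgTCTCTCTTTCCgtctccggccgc
Rpl35 (chr2:39005112-39005161, minus strand): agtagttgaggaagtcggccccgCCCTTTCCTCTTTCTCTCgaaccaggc
Rpl38 (chr11:114668550-114668599, plus strand): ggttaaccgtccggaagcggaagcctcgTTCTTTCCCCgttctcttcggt
Rplp2 (chr7:141447621-141447670, plus strand): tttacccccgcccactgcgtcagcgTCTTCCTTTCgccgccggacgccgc
The next 11 are all the genes with a promoter row whose level passed the test in 1 of the comparisons with pre-DC described further on. The first 6 of these rose and the last 5 fell.
Rpl3l (chr17:24727796-24727845, plus strand): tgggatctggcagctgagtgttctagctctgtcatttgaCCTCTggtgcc
Rpl22 (chr4:152325696-152325745, plus strand): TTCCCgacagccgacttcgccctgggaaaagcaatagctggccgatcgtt
Rpl19 (chr11:98026680-98026729, plus strand): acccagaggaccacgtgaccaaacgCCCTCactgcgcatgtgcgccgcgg
Rpl24 (chr16:55966245-55966294, plus strand): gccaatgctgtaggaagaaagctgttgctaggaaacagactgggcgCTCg
Rpl34 (chr3:130730379-130730428, minus strand): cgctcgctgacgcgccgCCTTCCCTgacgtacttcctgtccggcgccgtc
Rps15 (chr10:80292401-80292450, plus strand): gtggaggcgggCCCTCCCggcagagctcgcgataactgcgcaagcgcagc
Rpl7l1 (chr17:46782637-46782686, minus strand): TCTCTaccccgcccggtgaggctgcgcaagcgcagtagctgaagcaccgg
Rps15a (chr7:118116128-118116177, minus strand): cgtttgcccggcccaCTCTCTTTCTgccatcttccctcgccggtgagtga
Rps19bp1 (chr15:80264287-80264336, minus strand): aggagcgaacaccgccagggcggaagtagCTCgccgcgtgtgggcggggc
Rpl13a (chr7:45128726-45128775, minus strand): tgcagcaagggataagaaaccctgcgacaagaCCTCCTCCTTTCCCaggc
Rpl36al (chr12:69184048-69184097, minus strand): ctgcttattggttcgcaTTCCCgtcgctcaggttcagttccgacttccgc
The 27025 gene starts and promoters set beside the 48 genes, 1 per gene, were not limited to genes detected on these arrays. A run of at least 8 pyrimidines was in the window of 22 of the 48 genes (45.8%), against 20.0% of the 27025 gene starts searched. Of these 22 runs, 10 covered the start base, 8 lay wholly before it and 4 wholly after it. On the other strand such a run was in 4 of the 48 (8.33%), namely Rpl22, Rpl24, Rpl4 and Rps10, against 21.3% of all starts. The longest runs, of 21, 20 and 18 bases, were in Rpl7a, Rpl27a and Rpl35. The motif CTTTC on the gene's own strand, which can lie within such a run, was in 12 of 48 windows (25.0%) and in 6.71% of all windows. On the other strand CTTTC was in 3 (6.25%, Rpl24, Rps3a1 and Rps4x) and in 5.79% of all. Over the whole 300 bases and both strands, CGGAAG, the core that ETS factors such as GABPA recognise, was in 34 of 48 promoters (70.8%) and in 17.2% of all promoters. AAGATGGC, the core of the YY1 motif, was in 3 (6.25%, Rpl13a, Rpl7l1 and Rps15a) and in 2.88% of all. Of the 11 genes whose level changed on the brightest probe, 3 had a pyrimidine run of at least 8 (Rps15a, Rpl13a and Rpl34). Among the 37 others 19 did. Those others include Rpl23, Rpl27a, Rpl38, Rps19, Rps24 and Rps2, each with a dimmer probe that passed in mature DC against pre-DC. These counts describe letters in a window and were not tested.

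Between 14623 and 15328 of 45281 probes were detected on each array, and median intensities were lowest on the mature DC arrays, at 125 units with DMSO and 121 with SB202190. Markers of other cells moved with stage. The 9 measured neutrophil and granule markers summed to 248000 to 255000 intensity units on the pre-DC arrays, 43100 to 59500 on immature DC and 14000 to 14800 on mature DC, with Ctsg below background on both mature arrays and Mpo on the one with SB202190. The 9 dendritic markers summed to 37100 to 48400, 92600 to 99300 and 77900 to 80300 at the successive stages. Flt3, the receptor of DC precursors, was below background on all 6 arrays, and Itgax, which encodes CD11c, was below background on both pre-DC arrays and detected on the others. Cd209a, also on the dendritic list, was below background on both mature DC arrays and detected on the others. The 4 progenitor markers summed to 2900 to 3000 in pre-DC and to 1030 to 1610 later, with Cd34 and Myb below background after pre-DC. The log2 intensity of Kit was 10.45 and 10.33 in pre-DC (DMSO, then SB202190). It was 8.11 and 9.235 in immature DC and 9.51 and 10.25 in mature DC. Of the 4 only Kit was higher on average in mature than in immature DC. The 5 measured macrophage markers summed to 3030 to 3400 in pre-DC, 10800 to 13100 in immature DC and 5880 to 7770 in mature DC, and Mertk and C1qa were below background in pre-DC. Csf1r read 11.76 and 11.93 in immature DC and 12.48 and 12.18 in mature DC. Each of the other 4 was lower on average in mature than in immature DC. The 6 mature dendritic markers summed to 1890 to 2850, 12600 to 21000 and 19500 to 35800, and all 6 rose in immature DC against pre-DC in limma. Of the 4 measured erythroid markers 1 to 2 were detected in pre-DC and 0 later, and 4 of 5 B cell markers were detected in pre-DC and 0 or 1 later. Their part in the differences between stages was not tested. On bulk arrays, fewer cells of a type and less RNA per cell cannot be told apart.

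The question for the stages was how the ribosomal protein genes moved while marrow cells became immature and then mature DC, and most of them differed little. The median of their differences was 0.02 on the log2 scale for immature DC against pre-DC and -0.02 for mature DC against pre-DC, against 0.002 and -0.001 over all genes tested. In immature DC against pre-DC, 5 genes were higher and 3 lower at an adjusted p under 0.05 (limma with Benjamini-Hochberg adjustment over all 9221 genes), which is 8 of 57, where the same rule called 51.0% of all genes (25.6% higher, 25.4% lower). In mature DC against pre-DC, 5 were higher and 7 lower, 12 of 57, where it called 61.2% of all genes (30.8% higher, 30.4% lower). Without the 7 partners and paralogs the counts were 6 of 50 and 8 of 50.

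**Figure D1:**
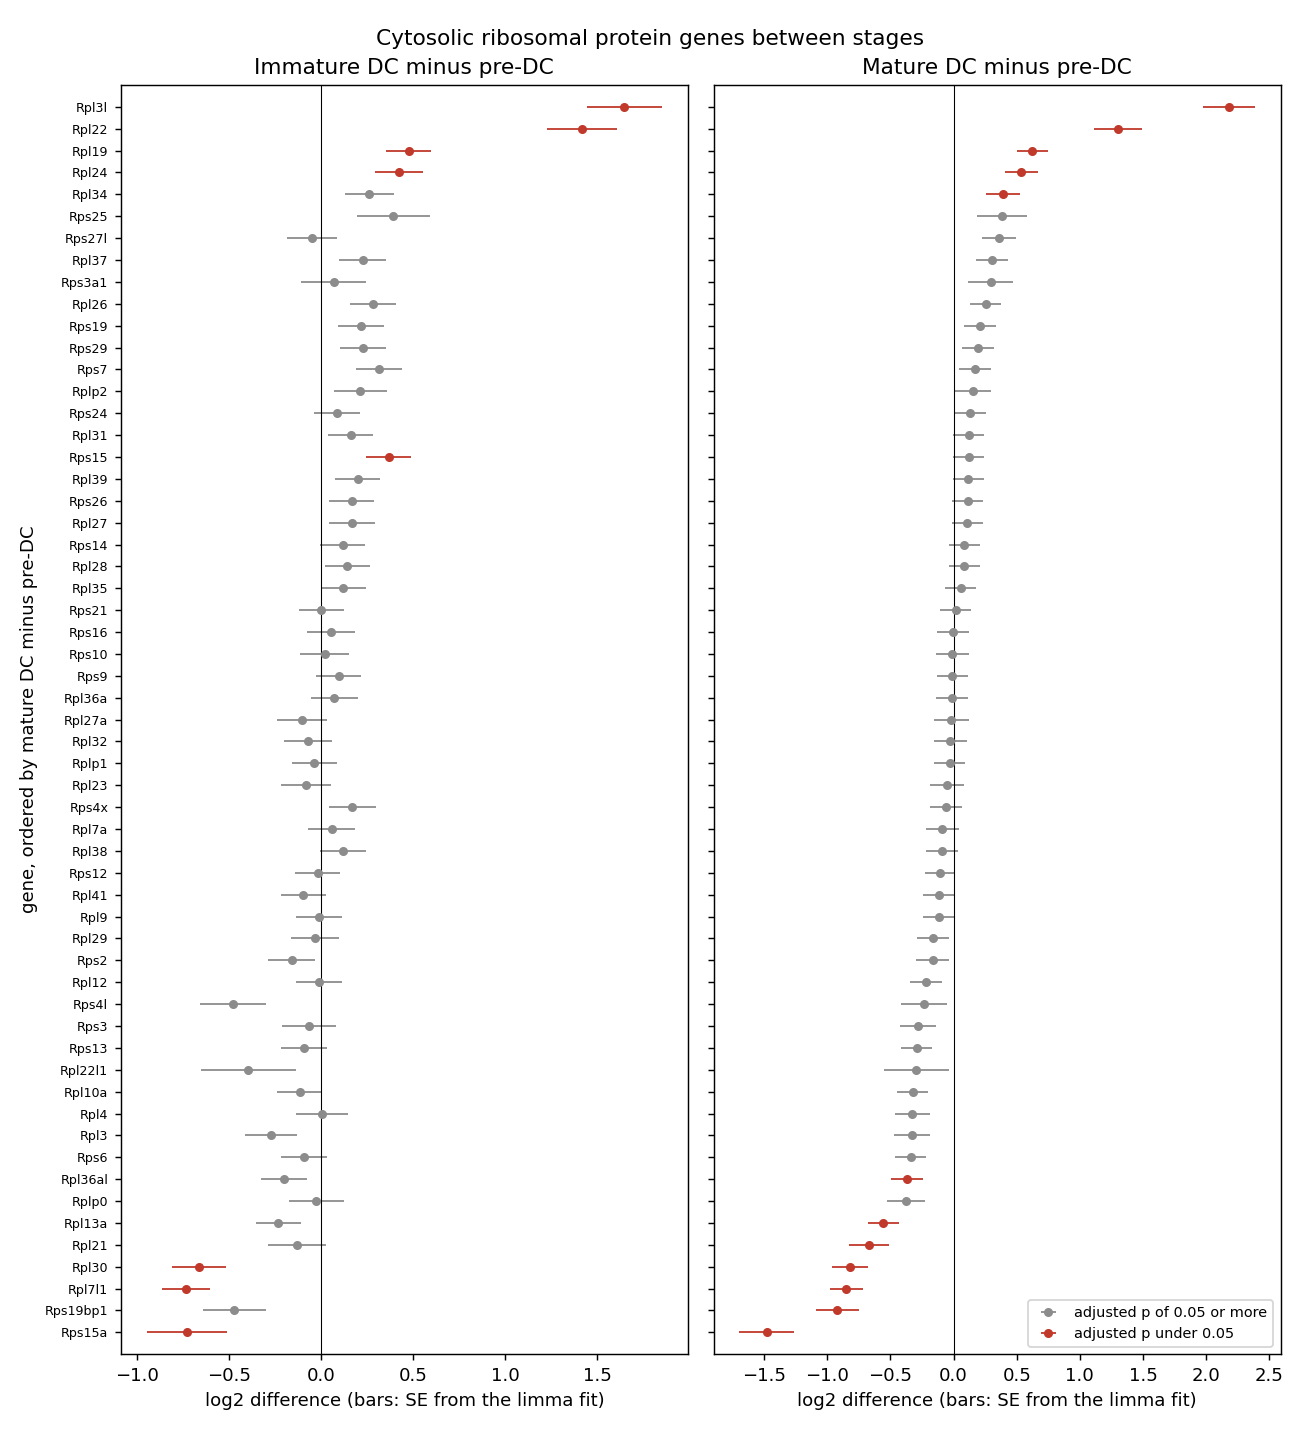
Log2 difference of each of the 57 ribosomal protein genes between immature DC and pre-DC (left) and between mature DC and pre-DC (right), with the standard error of the limma fit as bars. Red points passed an adjusted p of 0.05, 8 on the left and 12 on the right, and Rpl3l and Rpl22 lie farthest to the right in both panels.

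The spread over the 6 arrays is given as a description, with no test, and it is that of the brightest probe of each gene. The standard deviation of a gene over the 6 arrays had a median of 0.143 on the log2 scale among the ribosomal protein genes and 0.375 among all genes. For 40 of the 57 (70.2%) the lowest and highest arrays lay less than 0.5 log2 units apart, as for 17.4% of all genes. The count was 38 to 40 under other scalings (17% to 17.6% of all genes), 43 without background correction (40.5% of all genes) and 27 without normalization between arrays (10.7% of all genes). Most ribosomal protein probes were bright, so they were also set beside other bright genes. Among 165 other genes with a mean log2 intensity of 13 or more, 57 (34.5%) stayed within 0.5, and among 50 others of 14 or more 24 (48%) did. Of those bright genes 47.9% and 38.0% passed in immature DC against pre-DC, and 54.5% and 46.0% in mature DC against pre-DC. On each array the highest reading among these probes, 38111 to 50536 intensity units, lay near the highest of the array, 41907 to 50913, and how far a ceiling of the signal narrows these ranges was not tested. Dimmer probes of 6 of the genes passed where the brightest did not, as given with the other probes further on.

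Rps21, a small subunit protein, had the smallest range, with log2 intensities of 14.02 and 13.98 in pre-DC (DMSO, then SB202190), 13.98 and 14.02 in immature DC, and 14.003 and 14.02 in mature DC. The 3 stages overlapped, and the difference between mature DC and pre-DC was 0.02 (95% interval -0.29 to 0.32). Rps9, also of the small subunit, read 14.70 and 14.67, 14.79 and 14.78, and 14.68 and 14.68 at the same stages. For the mature against pre-DC step the 95% interval lay wholly within 1.5-fold in 32 of the 57 genes (56.1%) and in 19.1% of all genes. For immature against pre-DC it did so in 41 (71.9%) and 24% of all genes. For the other genes the interval leaves a change of 1.5-fold or more possible. The 2 arrays per stage gave standard errors of 0.12 to 0.26. In mature DC against pre-DC the intervals of Rpl3l (1.68 to 2.69), Rpl22 (0.84 to 1.77) and Rps15a (-2.02 to -0.94) lay wholly beyond 1.5-fold.

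The gene with the largest rise was Rpl3l, a paralog of Rpl3 known from the ribosomes of heart and skeletal muscle. Its log2 intensity was 9.06 and 8.98 on the pre-DC arrays with DMSO and SB202190, 10.31 and 11.02 in immature DC and 11.08 and 11.33 in mature DC. Every immature and mature array lay above both pre-DC arrays. The difference was 1.65 (SE 0.20, adjusted p = 0.00183, 3.13-fold) in immature DC and 2.18 (SE 0.20, adjusted p = 0.000414, 4.54-fold) in mature DC, both against pre-DC. Rpl3 itself, a large subunit protein near the catalytic centre, read 14.55 and 14.68 in pre-DC and 14.39 and 14.18 in mature DC. Its difference of -0.33 (SE 0.14) did not pass (adjusted p = 0.0878). In the RefSeq order Ndufb10 and Msrb1 lie next to Rpl3l, and Rps2 lies beyond Ndufb10. On their brightest probes Rps2, Ndufb10 and Msrb1 had differences of -0.16, -0.20 and -0.23 in mature DC against pre-DC, and none passed (adjusted p from 0.205 to 0.315). A second probe of Rps2 did pass, with -0.62 (adjusted p = 0.00845 in the limma fit over all detected probes).

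Rpl22, a large subunit protein that mice need for the development of alpha-beta T cells, rose early. It read 8.91 and 9.14 in pre-DC, 10.15 and 10.73 in immature DC and 10.38 and 10.28 in mature DC. All later arrays lay above both pre-DC arrays, and immature and mature DC overlapped. The rise was 1.42 (SE 0.19, adjusted p = 0.00228, 2.67-fold) to immature DC and 1.30 (SE 0.19, adjusted p = 0.00198, 2.47-fold) to mature DC. Its paralog Rpl22l1, which Rpl22 represses in mouse cells, was above background on 4 of 6 arrays, just inside the filter. It read 5.94 and 5.69 in pre-DC, 5.19 and 5.64 in immature DC and 5.83 and 5.20 in mature DC, with a difference of -0.30 (SE 0.26) from pre-DC to mature DC that did not pass (adjusted p = 0.357).

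Smaller rises were found for 4 more large subunit or small subunit genes. Rpl19, whose protein reaches across to the small subunit, read 12.36 and 12.53 in pre-DC, 12.79 and 13.04 in immature DC and 12.997 and 13.14 in mature DC, a rise of 0.48 and then 0.62 over pre-DC (SE 0.12, adjusted p = 0.0224 and 0.00659). Rpl24, another large subunit protein at the interface, read 12.85 and 12.65, then 13.18 and 13.18, then 13.28 and 13.29, a rise of 0.43 and 0.54 (SE 0.13, adjusted p = 0.0393 and 0.0148). The stages did not overlap with pre-DC in either gene. Rpl34 of the large subunit rose to mature DC by 0.39 (SE 0.13, adjusted p = 0.044), from 13.37 and 13.35 to 13.65 and 13.86, and its value of 0.26 in immature DC did not pass (adjusted p = 0.149). Rps15 of the small subunit rose to immature DC by 0.37 (SE 0.12, adjusted p = 0.049993), from 12.61 and 12.63 to 12.98 and 12.997, and its mature DC value of 0.12 did not pass (adjusted p = 0.426). Rpl34 and Rps15, and Rpl24 in immature DC, lost the call whichever 1 of the 6 arrays was left out, with adjusted p up to 0.262, 0.248 and 0.235. Rpl19 lost its immature DC call without any 1 of the 4 pre-DC and immature arrays (adjusted p up to 0.174), and Rpl24 its mature DC call without the SB202190 array of pre-DC (0.0981) or of mature DC (0.0759).

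**Figure D2:**
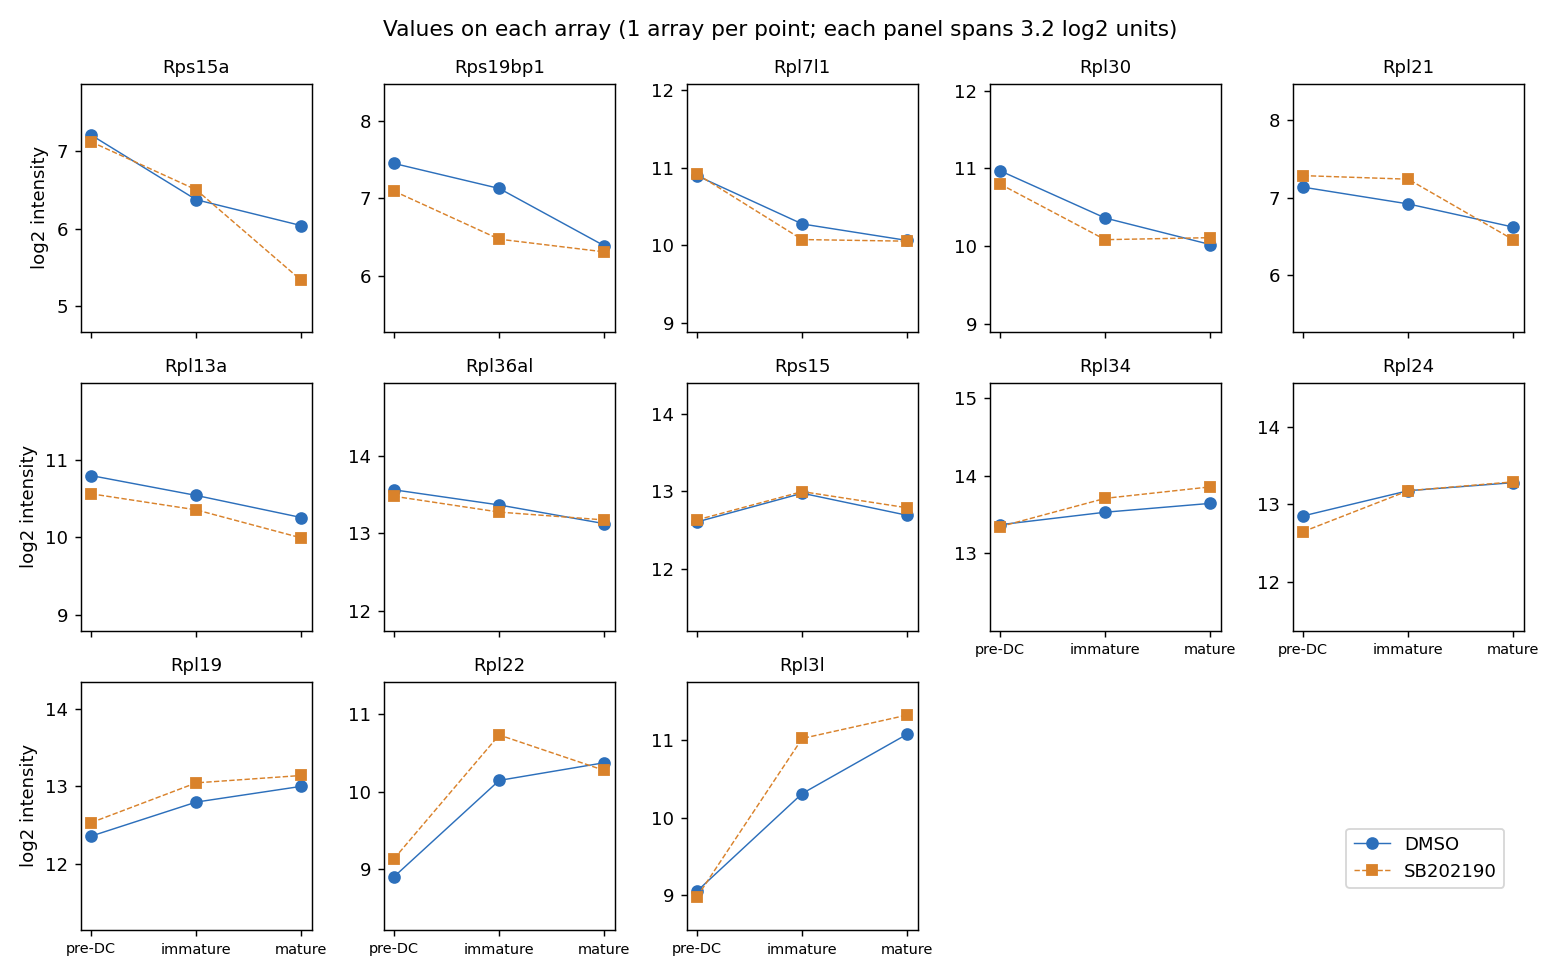
Log2 intensity on each of the 6 arrays for the ribosomal protein genes that passed an adjusted p of 0.05 in immature or mature DC against pre-DC, with DMSO as blue circles and SB202190 as orange squares joined across stages. All panels span the same number of log2 units, so slopes compare between panels; Rps15a falls and Rpl22 and Rpl3l rise most.

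The largest fall was that of Rps15a, a core small subunit protein, whose probe was dim. Its log2 intensity was 7.21 and 7.12 in pre-DC, 6.37 and 6.50 in immature DC and 6.04 and 5.33 in mature DC. The 3 stages did not overlap. The mature array with SB202190 was not above background, so that value lies near the floor of the array. Rps15a fell by 0.73 to immature DC (SE 0.22, adjusted p = 0.036), and its difference in mature DC was -1.48 (SE 0.22, adjusted p = 0.00217, 2.78-fold). The sizes depend on the background correction: with none they were -0.37 and -0.645, and on the authors' processed values -0.43 and -0.77. The immature DC call was lost without either pre-DC array or the immature DMSO array (adjusted p up to 0.225), with a value of -0.465 without the last.

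Rpl7l1, a paralog of Rpl7, read 10.90 and 10.92 in pre-DC, 10.27 and 10.07 in immature DC and 10.06 and 10.05 in mature DC. It fell by 0.73 and 0.85 against pre-DC (SE 0.13, adjusted p = 0.00631 and 0.0026). A dimmer probe of Rpl7l1 had -0.575 and -0.42 and did not pass (adjusted p = 0.0816 and 0.16 in the limma fit over all detected probes). Rpl30, a large subunit protein, read 10.97 and 10.80, then 10.36 and 10.08, then 10.02 and 10.11. It fell by 0.66 and 0.82 (SE 0.15, adjusted p = 0.0126 and 0.00431). In both genes every later array lay below both pre-DC arrays and immature and mature DC lay close together. Without the immature array with SB202190, the immature DC call was lost for both (adjusted p up to 0.0715 for Rpl7l1 and 0.117 for Rpl30), and for Rpl30 also without the pre-DC DMSO array.

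A further 4 genes fell in mature DC against pre-DC and did not pass in immature DC against pre-DC. Rps19bp1, the Rps19 binding partner, also known as an activator of the deacetylase SIRT1, read 7.45 and 7.09 in pre-DC, 7.12 and 6.47 in immature DC and 6.39 and 6.31 in mature DC. The fall was 1.89-fold (log2 -0.92, SE 0.17, adjusted p = 0.00519), while the immature DC value of -0.47 did not pass (adjusted p = 0.0645). Rpl21, a large subunit protein, read 7.14 and 7.29 in pre-DC and 6.62 and 6.46 in mature DC (-0.67, SE 0.16, adjusted p = 0.0129). Rpl13a, a large subunit protein that in human monocytes also blocks translation of inflammatory mRNAs after interferon gamma, read 10.80 and 10.56 in pre-DC and 10.26 and 9.99 in mature DC (-0.56, SE 0.12, adjusted p = 0.00999). Rpl36al, a paralog of Rpl36a, read 13.56 and 13.48 in pre-DC and 13.12 and 13.17 in mature DC (-0.37, SE 0.13, adjusted p = 0.045), and it lost the call whichever 1 array was left out (adjusted p up to 0.186). Rpl21 lost it without the mature array with SB202190 (0.0735) and when its probes were averaged (0.0869). Its 2 other detected probes, at -0.42 and -0.30, did not pass (adjusted p = 0.168 and 0.313). For the dim probes of Rps19bp1 and Rpl21 the size depends on the background correction, with -0.47 and -0.35 when none was made. In each of the 4 genes both mature arrays lay below both pre-DC arrays.

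The following members, named for their roles, did not pass on the brightest probe in either comparison with pre-DC. Dimmer probes of Rps19 and Rpl38 passed in both, as given with the other probes further on. Of the stalk proteins, which recruit the elongation factors, Rplp1 read 15.46 and 15.42 in pre-DC, 15.46 and 15.35 in immature DC and 15.42 and 15.40 in mature DC. Rplp2 read between 14.10 and 14.45 with overlapping stages, and Rplp0, their anchor on the ribosome, read 9.44 and 9.40 in pre-DC and 9.06 and 9.03 in mature DC (-0.38, SE 0.15, adjusted p = 0.071). Rps6, the substrate of the S6 kinases, read 13.68 and 13.66 in pre-DC, 13.57 and 13.59 in immature DC and 13.30 and 13.37 in mature DC, and its difference of -0.34 (SE 0.12) lay just outside the threshold (adjusted p = 0.0548). Rps3, which lines the mRNA entry channel, had -0.28 (SE 0.15, adjusted p = 0.142). Rps19, mutated in human Diamond-Blackfan anaemia, had 0.21 (SE 0.13, adjusted p = 0.199), and Rpl38, which mouse embryos need to translate Hox mRNAs, had -0.09 (SE 0.13, adjusted p = 0.565). Rps27l, a p53-induced paralog of Rps27, read 13.86 and 14.09 in pre-DC, 13.90 and 13.95 in immature DC and 14.16 and 14.51 in mature DC (0.36, SE 0.14, adjusted p = 0.0623).

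Probes for 8 genes taken by the symbol rule were above background on no array: Rpl14, Rpl17, Rpl39l, Rpl6, Rps20, Rps23, Rps23rg1 and Rpsa, which encodes the laminin-binding small subunit protein. Their lowest detection p-values ran from 0.0321 (Rps23rg1) to 0.338 (Rps20), so no level is given. RefSeq lists 89 protein-coding genes under symbols of this kind, of which 64 had a named probe. Rpl5, Rpl11, Rps27a and Rpl10l had no named probe, nor had Fau and Rack1, which encode parts of the ribosome under other symbols, and they were not analysed here.

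From immature to mature DC, the step driven by TNF-a and IL-1b, 0 of the 57 genes passed in limma, where 21.5% of all genes did (10.5% higher, 11.1% lower). An unadjusted p under 0.05 was found for 6 of the 57 and for 3436 of all 9221 genes. The median difference was -0.06, against -0.009 over all genes, with 42 genes below 0 and 15 above. Of all 9221 genes, 4709 lay below 0 and 4512 above. The smallest adjusted p-values were those of Rps15a (-0.75, SE 0.22, adjusted p = 0.061) and Rpl21 (-0.54, SE 0.16, adjusted p = 0.0625). The highest values were 0.53 for Rpl3l (SE 0.20, adjusted p = 0.12) and 0.41 for Rps27l (SE 0.14, adjusted p = 0.0861). The 95% interval lay within 1.5-fold for 46 of 57 genes (80.7%) and for 38.4% of all genes. The count was 0 to 2 in all settings but 1, the values without normalization between arrays, in which 16 genes were lower while the median of all genes itself was -0.305.

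For 16 of the genes more than 1 probe was above background, which gave 21 further probes, and in a fit over all 16624 detected probes 7 of these passed in mature DC against pre-DC, 2 higher and 5 lower, where 57.3% of all probes did. The dimmer probe of Rpl38 differed most from its brightest one. It read 10.63 and 10.44 in pre-DC, 8.94 and 8.45 in immature DC and 7.99 and 7.85 in mature DC, a difference of -2.61 (SE 0.15, adjusted p = 0.000112), while the brightest probe stayed between 14.74 and 14.99. Rpl23 had a dimmer probe that rose by 0.85 (SE 0.15, adjusted p = 0.00447) beside -0.05 on its brightest probe. A dimmer probe rose by 0.55 for Rpl27a (adjusted p = 0.0136), and dimmer probes fell by 0.87 for Rps19, 0.79 for Rps24 and 0.62 for Rps2 (adjusted p = 0.00412, 0.00545 and 0.00845), none of whose brightest probes passed. The probes of Rpl30 went the same way, with -0.82 and -0.59 (adjusted p = 0.00499 and 0.0137). Of the 21 further probes 14 had the sign of the gene's brightest probe. In immature DC against pre-DC 5 of the 21 passed, where 46.7% of all probes did. Of these 5, 2 were higher (Rpl23 and Rpl27a) and 3 lower (Rpl38 at -1.84, Rps19 at -1.43 and Rps24 at -0.62). The transcripts that each probe reads were not analysed here.

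**Figure D3:**
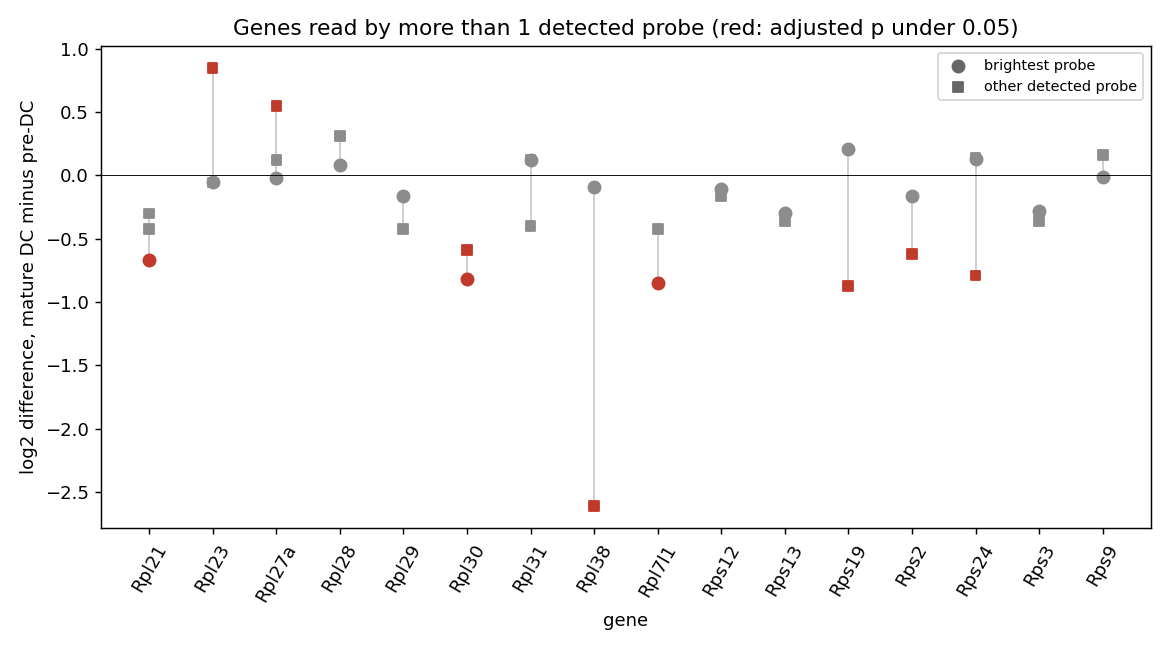
Log2 difference between mature DC and pre-DC for each probe of the 16 ribosomal protein genes with more than 1 detected probe, circles for the brightest probe and squares for the others, red where the adjusted p was under 0.05. The dimmer Rpl38 probe at -2.61 lies farthest from the brightest probe of its gene.

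Lists of genes that make or use ribosomes were counted over the same arrays, where 30.8% of all genes were higher and 30.4% lower in mature DC against pre-DC, and 25.6% and 25.4% in immature DC. Of 43 ribosome biogenesis genes, 38 were lower and 3 higher in mature DC against pre-DC, with a median difference of -1.46, while 37 were lower and 1 higher in immature DC. The largest falls were those of Nop58 and Nop56, core proteins of the box C/D particles that methylate ribosomal RNA (-2.79 and -2.37, SE 0.16 and 0.25, adjusted p = 0.000124 and 0.00066), and of Rrp12, an export factor (-2.32, SE 0.13, adjusted p = 0.000112). Sbds, which frees the large subunit for joining, rose by 0.78, and Rcl1 and Pes1, which act in rRNA processing, rose by 0.62 and 0.57 (adjusted p = 0.00286, 0.0173 and 0.02). Of 12 RNA polymerase I genes, 5 were lower and 1 higher (median -0.31), with Polr1b at -2.24, Polr1a at -1.89 and Polr1c at 0.73 (adjusted p = 0.00016, 0.000149 and 0.0043). Of the mitochondrial ribosomal protein genes, 44 of 71 were lower and 6 higher (median -0.51), from -2.08 for Mrps28 to 1.18 for Mrpl14 (adjusted p = 0.000198 and 0.000585).

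Translation factors were counted in the same way. Of 30 initiation factor genes 15 were lower and 3 higher (median -0.37), among them Eif2b3, a part of the exchange factor for eIF2 (-1.67, adjusted p = 0.000239), and the helicase gene Eif4a2 (1.33, adjusted p = 0.0015). Of 10 genes of the elongation list 6 were lower and 1 higher (median -0.65). That list also holds genes that are not elongation factors, namely Etf1, Gspt1, Eef1e1 and the kinase gene Eef2k. Among its elongation factor genes, Eef1g had -1.16 and Eef1d -0.48, and both passed. Eef1a1 and Eef1b2, at 0.18 and 0.13, did not pass. Eef2k, the kinase that inhibits elongation factor 2, fell by 2.63 and Eif5a had -1.76, while Eef2, elongation factor 2 itself, rose by 0.44 (adjusted p = 0.000222, 0.000519 and 0.0258). Of 19 genes of the mTORC1 and S6 kinase list 5 were lower and 5 higher (median 0.08). Myc, a driver of ribosome production, fell by 1.86, and Rptor, which encodes the mTORC1 subunit raptor, rose by 1.38 (adjusted p = 0.000873 and 0.000895). Mlst8, also of this mTORC1 list, had -1.585 (adjusted p = 0.000269 in limma). All 22 cell cycle genes were lower, with a median of -3.07 and the lowest value for Cdc6, a replication licensing factor (-4.26, adjusted p = 6.6e-05). For each list these counts stand beside the 61.2% of all genes that passed, and no test of a list was made.

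**Figure D4:**
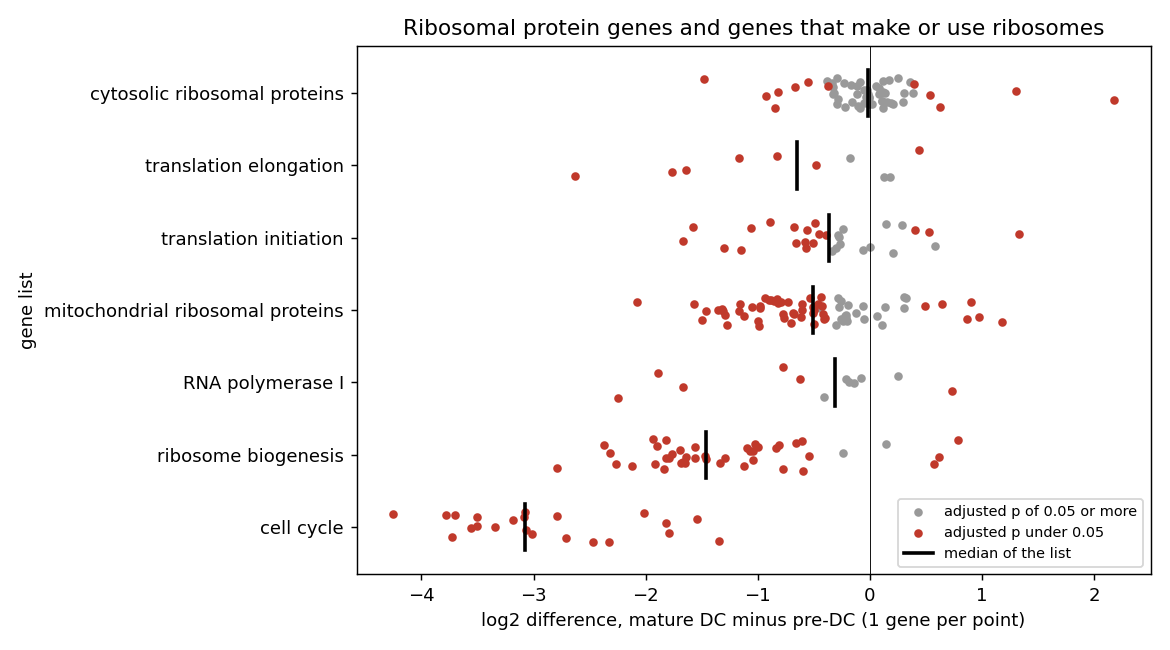
Log2 difference between mature DC and pre-DC for each gene of the cytosolic ribosomal proteins and of 6 lists of genes that make or use ribosomes or divide cells, 1 gene per point, red where the adjusted p was under 0.05, with the median of each list as a black bar. The cytosolic ribosomal proteins centre at -0.02, ribosome biogenesis at -1.46 and cell cycle at -3.07.

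The inhibitor was compared with its solvent to ask whether blocking p38 moved these genes. Across the 3 stages 0 of the 57 passed in limma, where the rule called 0.00% of all genes. An unadjusted p under 0.05 was found for 1 of the 57 and for 854 of all 9221 genes. The median difference, SB202190 minus DMSO, was 0.02, against 0.007 over all genes. The 95% interval lay within 1.5-fold for 51 of the 57 genes (89.5%) and for 77.3% of all genes. In 14 genes the 3 pairs shared 1 sign, 9 higher and 5 lower (24.6%), as they did in 32.1% of all genes.

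The 5 genes lower in all 3 pairs were Rps19bp1, Rpl13a, Rpl7a, Rplp1 and Rpl31. Rps19bp1 differed by -0.36, -0.65 and -0.08 in pre-DC, immature DC and mature DC (mean -0.36, SE 0.14, unadjusted p = 0.042, adjusted p = 0.529 in limma). Rpl13a differed by -0.23, -0.19 and -0.26 (mean -0.23, SE 0.10, adjusted p = 0.547), a narrow spread over the stages. Rpl7a, a large subunit protein, differed by -0.32, -0.25 and -0.10, and Rplp1 and Rpl31 by a mean of -0.06 each. Of the 9 genes higher in all pairs the 5 with the highest means were Rps27l (0.21), Rpl19 (0.19), Rpl39 (0.15), Rps4x (0.12) and Rpl35 (0.10), with adjusted p from 0.591 to 0.774. Rpl39, a small protein of the exit tunnel, differed by 0.13, 0.18 and 0.16.

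Within a stage 1 array stood against 1, so no test was made and the count is of differences of at least 1.5-fold. In pre-DC 0 of 57 genes lay past 1.5-fold, as did 3.67% of all genes (1.57% higher, 2.09% lower). The 3 highest were Rpl22 (0.23), Rps27l (0.23) and Rpl32 (0.20), and the 3 lowest were Rps4l (-0.55), Rps19bp1 (-0.36) and Rpl7a (-0.32). In immature DC 3 genes lay past 1.5-fold, where 7.97% of all genes did (3.96% higher, 4.01% lower). Rpl3l was higher with SB202190 by 0.71 and Rpl22 by 0.59, and Rps19bp1 differed by -0.65, while Rpl22l1 at 0.45, Rps25 at -0.51 and Rps4l at -0.35 lay inside. In mature DC 2 genes lay past 1.5-fold, where 10.0% of all genes did (4.93% higher, 5.10% lower). These were Rps15a (-0.71) and Rpl22l1 (-0.63), both lower, and neither was above background on the mature array with SB202190. The highest there were Rps3a1 (0.35), Rps27l (0.35) and Rplp2 (0.30), and Rpl13a was the third lowest (-0.26).

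**Figure D5:**
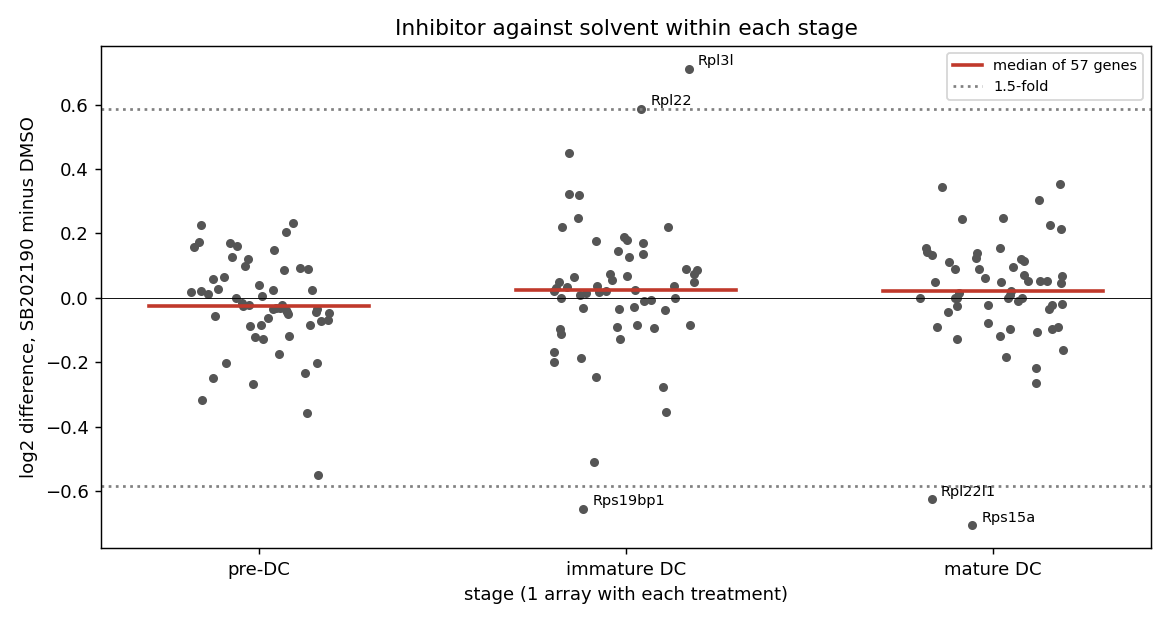
Log2 difference between the SB202190 and the DMSO array of each stage for the 57 ribosomal protein genes, 1 gene per point, with the median of the 57 as a red bar and dotted lines at 1.5-fold. Points lie past the lines for 0 genes in pre-DC, 3 in immature DC and 2 in mature DC, and the medians are -0.02, 0.02 and 0.02.

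Rpl3l and Rpl22, the 2 genes that rose most from pre-DC to immature DC, were also the 2 highest in the immature DC pair; both readings share the immature array with SB202190. The same pair held 22 of 22 cell cycle genes below 0 with SB202190 (median -0.60), against medians of -0.003 and -0.21 in the pre-DC and mature DC pairs. Neutrophil and granule markers in that pair summed to 59500 with DMSO and 43100 with SB202190, macrophage markers to 13100 and 10800 (Mrc1 was lower with SB202190 and the other 4 measured, Adgre1, Csf1r, Mertk and C1qa, were higher), and mature dendritic markers to 12600 and 21000. Their part in the values of Rpl3l, Rpl22 and Rps19bp1 was not tested.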

How the data were processed

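Total RNA of 6 cultures was profiled on single-colour Illumina bead arrays of 45281 probes, with 1 array for each of 3 stages and 2 treatments. The authors deposited a table without normalization that holds, per the file headers, the average intensity of the beads of each probe and a detection p-value. The authors also deposited processed intensity values on a linear scale, whose lowest value is -51.1. These were an alternative, with 52.1 added before taking logs. Neither their normalization nor the scanner software is stated by the labels.

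Intensities were background-corrected with normexp in limma 3.58.1 (R 4.3.3), using the detection p-values and an offset of 16, followed by quantile normalization and log2. The platform annotation gave 1 symbol to 34885 probes; the probe with the highest mean stood for each of 19057 genes. The 9221 genes detected (p under 0.01) on at least 2 arrays were tested with an additive limma model of stage and treatment (2 residual and 3.73 prior degrees of freedom), with Benjamini-Hochberg adjustment over all of them and a threshold of 0.05. A response that differs between stages counts as error for the treatment. Pairs within a stage were counted at 1.5-fold with no test. The additive fit was tested on simulated data with known changes in immature DC only. That simulation held no treatment effect, so it cannot bear on the inhibitor comparison or on responses that differ between stages.

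The genes named are those past the threshold in a stage comparison, members of 1 sign in all 3 pairs, the 3 highest and lowest of each pair, members by role, and up to 3 genes in each direction of each related list. The ribosomal protein genes, the lists and the tests were chosen with earlier results of these data known. Promoter sequences are from RefSeq (GRCm38.p6), with 250 bases before and 50 after each start; gene names and neighbours were read from the RefSeq gene table of that assembly.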

Additional observations from a re-analysis of the deposited data

How the results depend on the processing

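Each count was recomputed under 19 alternatives. The genes that passed were each followed through 16 or 17 of them, and none changed direction there. The count of ribosomal protein genes past the threshold in immature DC against pre-DC was 8, where 51.0% of all genes passed. It was 5 with no detection filter (22.2% of all genes) and 15 with trend and robust moderation (53.3% of all genes). Without any 1 of the 4 pre-DC and immature arrays, a stage kept 1 array. Fewer ribosomal protein genes and a smaller share of all genes then passed. The counts below for the other comparisons stand without the share of all genes in each alternative. For mature DC against immature DC the count was 0, and 2 with no background correction, 2 with an offset of 50, 16 without normalization between arrays, 1 each with the authors' processed values, the mean of all probes, detection on all 6 arrays, trend and robust moderation or every detected probe (the last chosen after seeing the data), and 0 to 2 when 1 array was left out. For mature DC against pre-DC it was 12, and 21 with no background correction, 27 without normalization (2 higher, 25 lower, with the median of all genes at -0.46), 20 with the authors' processed values, 22 with trend and robust moderation, and 8 to 10 when 1 array was left out. Scaling to the 75th percentile gave 9 higher and 8 lower in place of 5 and 7, and a median of 0.15 in place of -0.02, so the sign of that median depends on the scaling. Without normalization immature DC against pre-DC gave 2 higher and 6 lower in place of 5 and 3. The cause of these shifts was not tested. For the inhibitor across stages the count was 0 in every alternative. Without normalization Rpl19, Rpl24 and Rpl34 no longer passed in mature DC against pre-DC (adjusted p = 0.251, 0.442 and 0.846). Rpl3l, Rpl22, Rpl30, Rpl7l1, Rpl13a, Rps15a and Rps19bp1 passed in mature DC against pre-DC in every alternative that gave them a value. Without normalization the mature DC values of Rpl13a (-1.10), Rpl22 (0.765), Rpl30 (-1.36), Rpl36al (-0.74), Rpl7l1 (-1.39), Rps19bp1 (-1.39) and Rpl21 (-1.145) also moved by over 1.5 times. Stage as a block pairs the SB202190 and DMSO arrays of each stage; without blocks the counts were 8, 0, 13 and 0. The labels give no replicate numbers, so no other pairing was made.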
